A study of Mus musculus with 12 samples.

Results

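Endothelial nuclei, which line the blood vessels of the brain, numbered 782 among the 184957 retained nuclei of the left hippocampus, or 0.423%. A nucleus was counted as endothelial when it had 500 to 10000 detected genes, at least 1 UMI of at least 3 of the 6 transcripts Flt1, Cldn5, Pecam1, Slco1a4, Mecom and Ly6c1, at most 1 UMI in all of the neuronal transmitter genes Slc17a7, Slc17a6, Gad1 and Gad2, and no UMI of the oligodendrocyte gene Mog. A UMI is a molecular barcode that stands for 1 captured transcript molecule. Single-nucleus RNA sequencing had been run on sorted nuclei of 12 female mice, with 1 mouse per library and 3 libraries in each of 4 groups, to compare genotypes and ages in a model of Alzheimer's disease. The groups were WT mice at 6 months (replicates 3, 7 and 11), 3xTg-AD mice at 6 months (replicates 1, 5 and 9), WT mice at 12 months (replicates 4, 8 and 12) and 3xTg-AD mice at 12 months (replicates 2, 6 and 10). The 3xTg-AD mice carried human APP with the Swedish mutation and human tau with P301L as transgenes, and in this line the transgenes are driven by Thy1 regulatory sequence, which is active mainly in neurons. The WT mice were their littermates, and both were on a mixed B6;129 background. All animals were perfused with buffered saline before dissection, and neither males nor other ages were analysed here, so the values describe female mice at these ages.

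Endothelial cells of the brain form the inner wall of arteries, capillaries and veins, and their tight junctions, low rate of vesicle transport and dense set of transporters make up the blood-brain barrier. Wnt ligands from glia and neurons keep these barrier properties, VEGF, angiopoietin, Notch and TGF-beta or BMP signals shape the vessel, and flow-responsive Klf factors hold the resting state. The same cells release factors that set clotting and clot lysis, such as von Willebrand factor and tissue plasminogen activator, and in inflammation they display adhesion molecules that hold leukocytes.

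Endothelial nuclei were shallow. They held a median of 1295.5 UMIs and 883 genes, against 5335 UMIs over all retained nuclei and 9568 in 54561 nuclei with at least 3 UMIs of the transmitter genes, called transmitter-positive below. Per library, 40 to 90 endothelial nuclei gave sums of 57928 to 196744 UMIs, out of library totals of 79177051 to 128323908 UMIs. The rule found 3 of the 6 transcripts in 211 nuclei, 4 in 275, 5 in 208 and all 6 in 88. Just outside the threshold, 739 nuclei had 2 of them and met the other limits, with a median of 4566 UMIs against 1231 in members with exactly 3, and a further 107 nuclei with at least 3 failed the transmitter or Mog limit. Among the members, 27 also met a marker minimum for pericytes (5), astrocytes (19) or microglia (3), and 38 (4.86%) were called doublets against 6.83% of all retained nuclei. No barcode was shared by members of different libraries, and 31 member barcodes also stood among the retained nuclei of another library.

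The transcripts that chose the nuclei were, by construction, frequent in them. Mecom, a transcription factor of arterial and other endothelium, had a UMI in 96.0% of endothelial nuclei and 1.27% of transmitter-positive nuclei, the VEGF receptor gene Flt1 in 95.3% and 0.73%, and the organic anion transporter gene Slco1a4 in 91.0% and 0.33%. The tight junction gene Cldn5 had a UMI in 54.1% against 0.12%, the adhesion gene Pecam1 in 53.1% against 2.19% and Ly6c1 in 32.6% against 0.10%, in each case at the median depths of 1295.5 and 9568 UMIs given above. These shares describe the selection and were not tested.

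The 26 further endothelial markers that the rule did not use were also higher in endothelial nuclei than in the other retained nuclei, again as a description. Their summed level was 11936 to 17729 CPM per library in endothelial nuclei and 67.4 to 101 CPM in the other nuclei. CPM is the count of a gene's UMIs scaled to 1000000 UMIs of all genes, over all nuclei of 1 class of a library. The adhesion receptor gene Adgrl4 had a UMI in 84.7% of endothelial and 0.60% of transmitter-positive nuclei, Ptprb, a phosphatase that restrains the angiopoietin receptor, in 82.1% and 2.86%, and Abcb1a, the P-glycoprotein efflux pump of the barrier, in 77.7% and 0.60%. The least often found of the list was the transcription factor gene Sox18, with a UMI in 36 nuclei.

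Ranked by the ratio of CPM in endothelial over other retained nuclei, with 5 CPM added to both, the 25 leading genes, 5 of which (Slco1a4, Flt1, Mecom, Cldn5 and Pecam1) had chosen the nuclei and had to rank high, opened with Slco1a4 (a ratio of 425), Flt1 (412), Adgrl4 (319), Mecom (246), Ptprb (190) and Abcb1a (187). Among them, 4 were transporters or pumps of the barrier, namely Slco1a4, Abcb1a, the efflux pump gene Abcg2 (79.8) and the glucose transporter gene Slc2a1 (72.9). Transcription factors among them were Mecom, Zfp366 (95.1), the ETS factors Fli1 (84.2) and Erg (66.8) and the flow-responsive factor Klf2 (64.2). Receptor and junction genes included the interleukin-1 receptor gene Il1r1 (124), the angiopoietin receptor gene Tek (62.6), Adgrf5 (62.7), Pecam1 (77.4) and, next to Zfp366 in rank, Cldn5, and secreted or other products were von Willebrand factor (Vwf, 121), Egfl7 (102), the ceramidase gene Acer2 (99.4), Nostrin (90.2), which binds endothelial nitric oxide synthase, Paqr5 (85.7), the phospholipid transfer protein gene Pltp (69.1), Gm5127 (73.2) and Cyyr1 (70.0). The heatmap of marker levels shows the same genes beside those of other cell types.

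**Figure D1:**
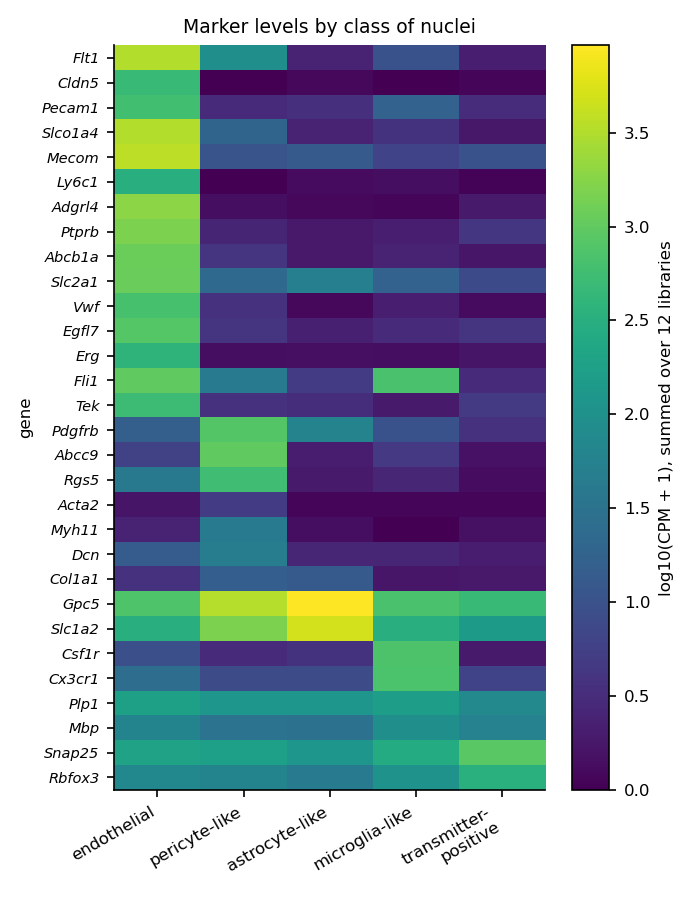
Colour gives log10 of CPM plus 1, summed over 12 libraries, for marker genes (rows) in endothelial, pericyte-like, astrocyte-like, microglia-like and transmitter-positive nuclei (columns). The endothelial column is bright for Flt1 through Tek and dark for the smooth muscle genes Acta2 and Myh11, while the astrocyte genes Gpc5 and Slc1a2 are not at 0 in it.

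Promoter sequence was available for part of the leading genes, and 4 upstream windows are shown because they hold AGGAAG or its complement CTTCCT, the letters at the core of many sites of ETS factors, the family of the leading genes Erg and Fli1. Each line gives the 250 bases before the RefSeq start of the gene (build GRCm38.p6, 5′ to 3′ on the strand of the gene), with the motif in capitals.
Slco1a4 (chr6:141856221-141856470, minus strand): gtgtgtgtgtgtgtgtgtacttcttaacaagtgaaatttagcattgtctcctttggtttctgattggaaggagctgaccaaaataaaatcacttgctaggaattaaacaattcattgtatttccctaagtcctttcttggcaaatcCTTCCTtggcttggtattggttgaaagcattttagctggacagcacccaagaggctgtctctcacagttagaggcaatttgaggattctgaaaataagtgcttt
Flt1 (chr5:147726012-147726261, minus strand): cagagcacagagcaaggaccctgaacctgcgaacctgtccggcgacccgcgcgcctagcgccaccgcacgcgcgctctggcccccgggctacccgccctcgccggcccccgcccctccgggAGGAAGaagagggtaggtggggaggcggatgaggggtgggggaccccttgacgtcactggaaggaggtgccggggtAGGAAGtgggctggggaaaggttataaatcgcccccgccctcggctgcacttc
Adgrl4 (chr3:151437632-151437881, plus strand): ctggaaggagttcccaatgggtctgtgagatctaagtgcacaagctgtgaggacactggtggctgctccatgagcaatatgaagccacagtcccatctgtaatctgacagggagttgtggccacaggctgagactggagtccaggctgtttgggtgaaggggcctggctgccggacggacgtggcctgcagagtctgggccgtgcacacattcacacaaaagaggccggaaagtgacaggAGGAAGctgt
Nostrin (chr2:69135550-69135799, plus strand): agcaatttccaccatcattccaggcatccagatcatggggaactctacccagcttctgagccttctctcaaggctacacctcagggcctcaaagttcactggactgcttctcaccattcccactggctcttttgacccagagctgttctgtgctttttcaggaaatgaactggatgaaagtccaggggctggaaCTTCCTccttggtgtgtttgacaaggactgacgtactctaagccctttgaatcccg

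Of the 25 leading genes, those that had chosen the nuclei included, 20 matched a RefSeq window by symbol and 14 had 1 window only. The motif, searched on both strands, was found in 7 of those 14 windows (50%), and 2 of the 7 lay more than 1 kb from the gene's start in the annotation. Among all 22862 genes with 1 window the share was 29.1%. The windows hold matching letters, and no binding was measured.

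Markers of other cell types were not uniformly absent. Pooled over libraries, 7 of 8 pericyte, 6 of 7 microglial, 8 of 9 fibroblast and 5 of 5 choroid plexus genes were higher than in the other retained nuclei. So were 4 of 4 erythrocyte, 3 of 5 ependymal, 3 of 5 smooth muscle, 2 of 5 border macrophage and 1 of 6 astrocyte genes. No neuronal, oligodendrocyte or oligodendrocyte precursor gene was. The 5 smooth muscle genes summed to 0 to 17.3 CPM per library, with Tagln at 0 in all libraries, and the 5 genes of border macrophages to 0 to 27.3 CPM, with Mrc1 and Pf4 at 0. Pericyte genes summed to 13.7 to 572 CPM, against 8061 CPM in pericyte-like nuclei. At 12 months they held 52.8, 501 and 572 CPM in WT and 13.7, 30.5 and 43.7 CPM in 3xTg-AD mice, without overlap. Of the single genes tested at 12 months, 9.50% did not overlap either. At 6 months the genotypes overlapped in the pericyte sum. The sum was not tested, and 5 members in all met the pericyte minimum. Microglial genes summed to 88.0 to 518 CPM, against 5654 CPM in microglia-like nuclei. Erythrocyte genes reached 68.3 CPM, ependymal genes 298 CPM and genes of meningeal fibroblasts 1476 CPM in the highest library, each with a lowest library at 0.

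Astrocyte, choroid plexus and neuronal transcripts also differed between libraries. The 6 astrocyte genes summed to 131 to 2906 CPM, against 16826 CPM in astrocyte-like nuclei, and in WT mice the 3 libraries held 1503, 2450 and 1212 CPM at 6 months and 1003, 207 and 131 CPM at 12 months. In 3xTg-AD mice they held 262, 555 and 2906 CPM at 6 months and 1434, 1139 and 1739 CPM at 12 months, so that at 12 months every 3xTg-AD library lay above every WT library and in WT mice every library at 12 months lay below those at 6 months. Of the single genes tested, 9.50% did not overlap between the genotypes at 12 months and 9.46% did not overlap between the ages in WT mice. The astrocyte sums were not tested. Choroid plexus genes ranged from 7.5 to 1792 CPM, with the highest value in 3xTg-AD replicate 9 at 6 months, the library that was also highest for astrocyte genes. Neuronal genes summed to 355 to 1450 CPM, against 4576 CPM in transmitter-positive nuclei, and oligodendrocyte and precursor genes to 117 to 760 and 173 to 581 CPM. The neuronal list holds Slc17a7, Slc17a6, Gad1 and Gad2, which the rule limits and which define the transmitter-positive nuclei. The oligodendrocyte list holds Mog, which the rule requires to be absent. The neuronal and oligodendrocyte sums are therefore partly set by the selection.

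**Figure D2:**
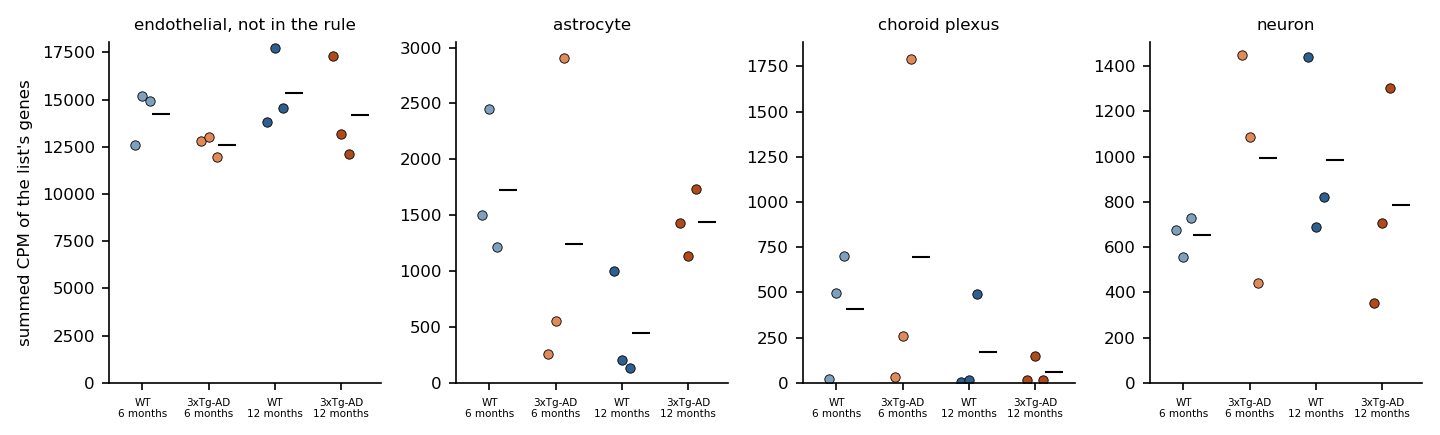
Points are libraries and horizontal lines are group means of the summed CPM of marker lists in endothelial nuclei, by genotype and age. Endothelial markers that the rule did not use stayed between 11936 and 17729 CPM, whereas the astrocyte sum ran from 131 to 2906 CPM and the choroid plexus sum from 7.5 to 1792 CPM.

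Immediate-early and heat shock genes, which respond to tissue handling as well as to stimuli, summed to 720, 1541 and 862 CPM in the endothelial nuclei of WT mice at 6 months and to 288, 289 and 574 CPM in those of 3xTg-AD mice at 6 months, without overlap. Of the single genes tested at 6 months, 10.9% did not overlap either. At 12 months the sums were 355, 725 and 442 CPM in WT and 396, 300 and 422 CPM in 3xTg-AD mice, which overlapped. The share of these values in the genotype differences below was not tested.

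The share of endothelial nuclei did not differ between genotypes or ages beyond the spread between mice. In WT mice it was 0.627%, 0.325% and 0.450% at 6 months and 0.383%, 0.302% and 0.423% at 12 months. In 3xTg-AD mice it was 0.409%, 0.568% and 0.381% at 6 months and 0.305%, 0.567% and 0.379% at 12 months. All 4 groups overlapped, as the plot of shares shows. The mean was 0.435% ± 0.108 (SD, n = 6) in 3xTg-AD and 0.418% ± 0.117 (SD, n = 6) in WT mice, a difference of 0.0165 percentage points (two-sided exact permutation test over libraries, p = 0.827, adjusted p = 0.827 over 3 tests). At 12 months the mean was 0.393% ± 0.0972 (SD, n = 6) and at 6 months 0.460% ± 0.116 (SD, n = 6), a difference of -0.0670 points (exact permutation p = 0.275, adjusted p = 0.825). The genotype difference at 12 months minus that at 6 months was 0.0621 points (exact permutation p = 0.65, adjusted p = 0.827). Within age, genotype differed by -0.0145 points at 6 months and 0.0476 points at 12 months (exact permutation p = 0.9 and 0.8, where 3 against 3 libraries cannot go below 0.1). A share of recovered nuclei cannot tell fewer cells from fewer nuclei captured or passing the marker rule, and per 100 pericyte-like nuclei the libraries held 49.4 to 110 endothelial nuclei.

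**Figure D3:**
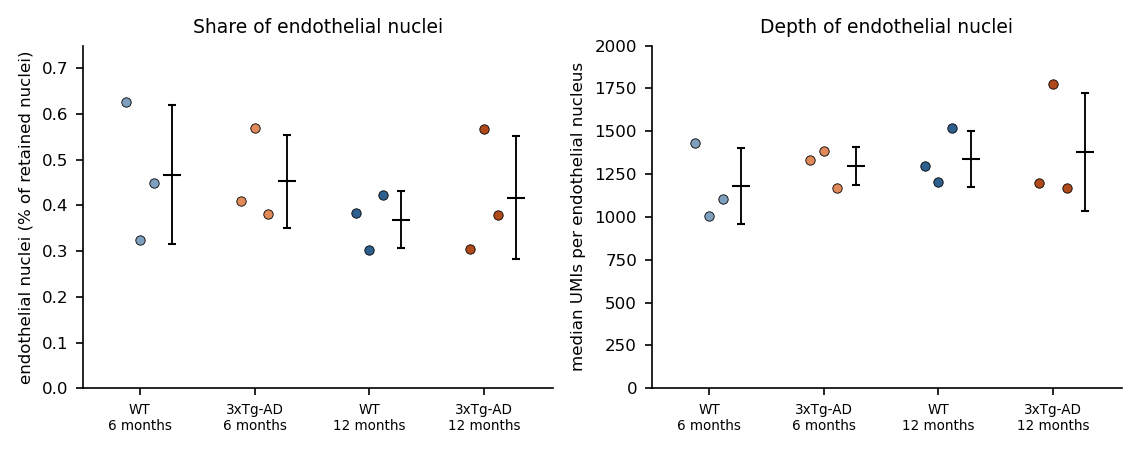
Left, endothelial nuclei as a percentage of retained nuclei and right, median UMIs per endothelial nucleus, for each library (points) with the group mean and SD (n = 3) beside them. Shares ran from 0.302% to 0.627% and median depths from 1005 to 1778 UMIs, and the groups overlapped in both.

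Markers of the vessel segments were found in different, partly overlapping nuclei. At least 2 of the 14 arterial genes had a UMI in 162 nuclei (20.7%), at least 2 of the 8 capillary genes in 393 (50.3%) and at least 2 of the 10 venous genes in 285 (36.4%), and 51 nuclei (6.52%) met both the arterial and the venous minimum, at a median of 1802 UMIs. The 3 lists differ in length and in the abundance of their genes, so these shares are not proportions of vessel types. Bmx, a kinase gene of arterial endothelium, had a UMI in 89 nuclei, with a median of 1482 UMIs against 1281 in the 693 nuclei without one. Nuclei with Bmx more often held other arterial transcripts, such as the matrix genes Mgp (65.2% against 6.93%) and Fbln5 (53.9% against 2.60%), the Notch ligand gene Jag1 (38.2% against 9.09%) and Vegfc (37.1% against 9.67%). All 8 capillary transcripts were in a smaller share of nuclei with Bmx, among them the proteoglycan gene Spock2 in 20.2% against 58.0%, the transferrin receptor gene Tfrc in 6.74% against 36.8% and the carbonic anhydrase gene Car4 in 3.37% against 22.1%. The venous list was divided, with Il1r1 in 12.4% against 45.6% and Nr2f2 in 5.62% against 14.9%, but Vwf in 66.3% against 39.2% and Vcam1 in 24.7% against 10.7%.

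The amino acid transporter gene Slc38a5, which marks venous endothelium, had a UMI in 33 nuclei, with a median of 1491 UMIs against 1288 in the rest. Of these nuclei 78.8% held Vwf and 75.8% Il1r1, against 40.7% and 40.3% of the others, and Nr2f2, a venous transcription factor gene, was found in 27.3% against 13.2%. Bmx was found in 3.03% against 11.7%. Capillary genes had no common direction, with Cxcl12 in 3.03% against 19.4%, Rgcc in 24.2% against 10.3%, Slc16a1 in 18.2% against 9.88%, Spock2 in 57.6% against 53.5% and Tfrc in 30.3% against 33.5%. These co-detections pool nuclei of 12 libraries and are given without a test.

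Between genotypes, Plat was the gene whose endothelial level differed past the threshold when both ages were fitted together. Plat encodes tissue plasminogen activator, the protease that starts clot lysis and that brain endothelium secretes, and in these matrices it lies on chr8:22757727-22782844 (plus strand, GRCm38, ENSMUSG00000031538). In WT mice its level in endothelial nuclei was 183, 293 and 313 CPM at 6 months and 211, 138 and 151 CPM at 12 months. In 3xTg-AD mice it was 26.2, 52.0 and 76.1 CPM at 6 months and 54.6, 40.7 and 80.0 CPM at 12 months. Every 3xTg-AD library lay below every WT library at both ages. The counts behind these levels were small, at 8 to 33 UMIs in WT and 3 to 11 UMIs in 3xTg-AD libraries, and 122 endothelial nuclei (15.6%) had a UMI of Plat, against 10.1% of the deeper transmitter-positive nuclei.

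Plat stood at 0.263 of the WT level, a log2 fold change of -1.93 with an SE of 0.29 (quasi-likelihood F test of edgeR on counts summed per library, with age as a covariate, adjusted p = 0.0184, lower in 6 of 6 libraries). It passed the filter on low counts through its WT libraries alone, and no 3xTg-AD library reached the level that the filter requires. It was the 1 gene called of 3224 tested, or 0.031%, a gene being called at an adjusted p under 0.05 and a log2 fold change beyond 0.2 in either direction, and 179 genes (5.55%) had an unadjusted p under 0.05. In 6 months alone the log2 fold change was -2.27 (edgeR, adjusted p = 0.0981) and in 12 months alone -1.53 (adjusted p = 1.00), each with 3 against 3 libraries. The call in the joint fit was lost without WT replicate 7 (adjusted p = 0.0602) or 11 (0.0754) of 6 months, 3xTg-AD replicate 5 of 6 months (0.122) or 3xTg-AD replicate 6 of 12 months (0.0868), and the log2 fold change stayed between -2.13 and -1.77 when any library was left out.

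Outside the endothelial nuclei the genotypes overlapped in Plat. Over all other retained nuclei of the same libraries Plat stood at 11.5 to 13.3 CPM in WT and 12.1 to 14.4 CPM in 3xTg-AD mice, and in pericyte-like nuclei it ranged from 24.5 to 81.0 CPM. The genotype effect in endothelial nuclei minus that in the other nuclei was -2.06 on the log2 scale with an SE of 0.30 (edgeR, library as a block, adjusted p = 0.0116), the 1 call among 3224 genes (0.031%) in that test. Without WT replicate 7 or 11, 3xTg-AD replicate 5 or 6, or WT replicate 4 this call was lost too. The tested genes within 1000000 bases of Plat had small log2 fold changes in endothelial nuclei, at -0.10 for Thsd1, -0.27 for Polb, 0.00 for Ikbkb and -0.04 for Kat6a, all with adjusted p of 0.98 to 1.00. Without replicates 7 and 9 of 6 months, the libraries with the highest astrocyte sums, an alternative chosen after seeing the data, Plat had a log2 fold change of -1.96 and was not called (edgeR adjusted p = 0.106).

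**Figure D4:**
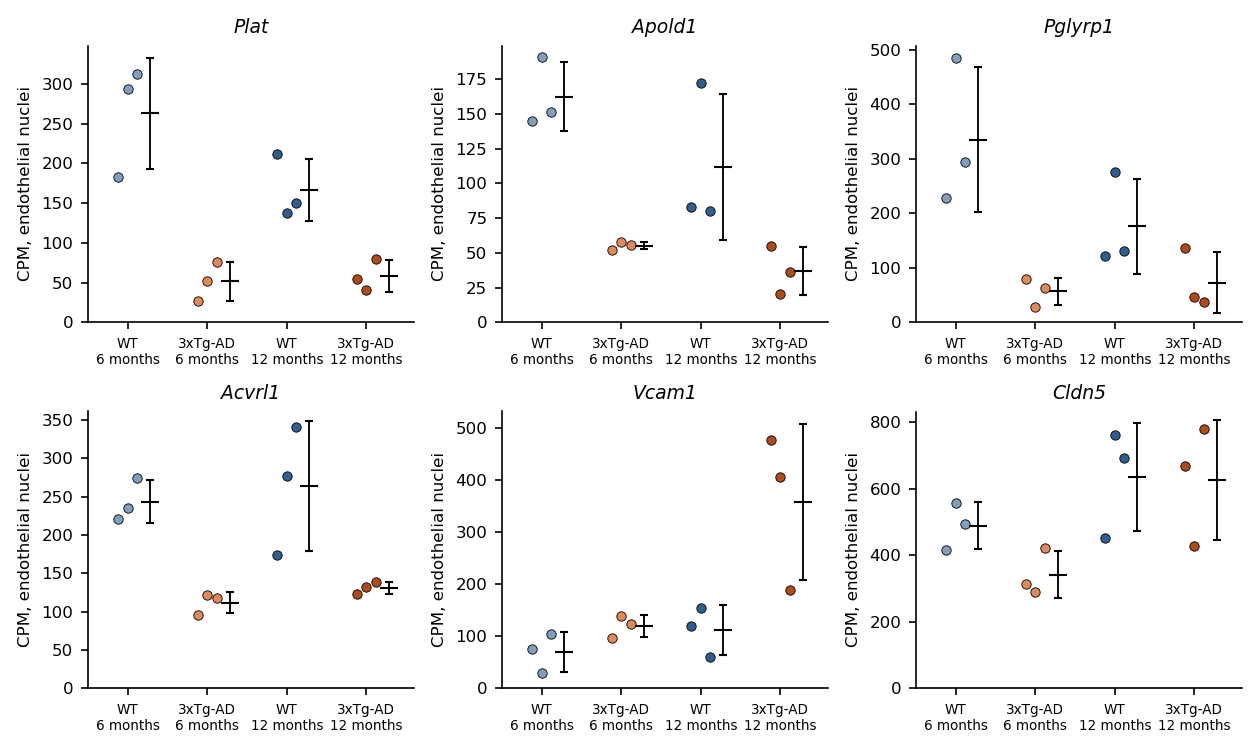
CPM of 6 genes in endothelial nuclei, with 1 point per library and the group mean and SD (n = 3) beside the points, by genotype and age. For Plat the 6 3xTg-AD libraries lie between 26.2 and 80.0 CPM and the 6 WT libraries between 138 and 313 CPM, and Vcam1 is highest in 3xTg-AD mice at 12 months (189 to 478 CPM). Cldn5, which helped to choose the nuclei, is shown as a description.

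Apold1, Acvrl1, Pglyrp1 and Vcam1 did not pass the threshold and were chosen after their values were seen. Apold1, an endothelial early response gene on chr6:134981718-134986836, held 145, 191 and 152 CPM in WT and 52.4, 57.8 and 55.4 CPM in 3xTg-AD mice at 6 months, and 83.0, 173 and 80.3 CPM against 54.6, 20.3 and 36.4 CPM at 12 months. The genotypes did not overlap at either age, and the log2 fold change was -1.55 (edgeR adjusted p = 0.0696). Like Plat, Apold1 passed the filter on low counts through its WT libraries alone. The immediate-early and heat shock genes listed above also stood lower in 3xTg-AD mice at 6 months. Acvrl1, the BMP receptor ALK1, on chr15:101128522-101145336, held 221, 235 and 275 CPM in WT and 96.1, 121 and 118 CPM in 3xTg-AD mice at 6 months, and 174, 276 and 341 CPM against 123, 132 and 138 CPM at 12 months. It did not overlap either, with a log2 fold change of -1.03 (edgeR adjusted p = 0.0847). Within 1 age, 10.9% of the genes tested at 6 months and 9.50% of those tested at 12 months did not overlap between the genotypes.

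Pglyrp1, a peptidoglycan recognition gene on chr7:18871331-18890459, held 227, 484 and 294 CPM in WT and 78.6, 28.9 and 62.3 CPM in 3xTg-AD mice at 6 months. At 12 months it held 121, 276 and 131 CPM in WT and 137, 45.7 and 36.4 CPM in 3xTg-AD mice, which overlapped, and the fitted level in 3xTg-AD mice was 0.249 of that in WT mice (edgeR adjusted p = 0.0755). Vcam1, the adhesion molecule that leukocytes bind, on chr3:116109949-116129688, held 75.8, 29.3 and 104 CPM in WT and 96.1, 139 and 125 CPM in 3xTg-AD mice at 6 months, with overlap. At 12 months it held 121, 155 and 60.2 CPM in WT and 478, 407 and 189 CPM in 3xTg-AD mice, without overlap, as in 9.50% of the genes tested at 12 months. The venous list, of which Vcam1 is a member, summed to 1441, 3573 and 2149 CPM in WT and 3387, 4422 and 1499 CPM in 3xTg-AD mice at 12 months, with overlap, and its part in the values of Vcam1 was not tested. The astrocyte sum of endothelial nuclei, given above, was also higher in every 3xTg-AD library at 12 months, and its part was not tested either. For Vcam1 the log2 fold change over both ages was 1.26 (edgeR adjusted p = 0.414).

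Genes whose 6 3xTg-AD libraries lay wholly on 1 side of the 6 WT libraries numbered 19 of 3224, beside 0.031% called, with 13 lower and 6 higher in 3xTg-AD mice, named here after their values were seen. The lower genes were Plat, Acvrl1, Nrp1, a co-receptor of VEGF, and Notch4, the endothelial Notch receptor, which are 4 of the 144 tested genes of the pathway, segment and further endothelial marker lists together, and St8sia6, Ptpn1, Apold1, Piezo1, Fyn, Fermt2, Hdac7, Dcbld2 and Pros1. The higher genes were Hecw2, Spata5, Hivep2, Nipal2, Pced1b and Cdr1os. Nrp1 ranged from 114 to 214 CPM in 3xTg-AD and 224 to 332 CPM in WT libraries, with a log2 fold change of -0.64, and Notch4 from 43.7 to 80.9 CPM and 82.1 to 141 CPM, with -0.59. Neither passed the threshold. Notch4 passed the filter on low counts through its WT libraries alone. Its highest 3xTg-AD library stood just under the level that the filter requires.

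Grouped by role, the measured members of the endothelial lists were lower in 3xTg-AD mice more often than higher, in a comparison that called 0.031% of genes. The lists held 218 genes outside the 6 that chose the nuclei, 123 passed the filter on low counts, and 1, Plat, was called. The log2 fold change was negative in 88 of the 123 (71.5%), against 48.4% of all tested genes, and its median was -0.18, against 0.01 over all. In the test of endothelial minus other nuclei 62.6% were negative, against 48.5% of all, with a median of -0.10. For genotype over both ages an unadjusted p under 0.05 was reached by 21 (17.1%), against 5.55% of all. At 6 months alone 72.6% of 117 list members were negative and at 12 months alone 65.5% of 110, against 49.8% and 49.3% of all tested genes. The sums of the capillary and venous markers, which were not tested, also separated by genotype at 6 months, a comparison in which 10.9% of the tested genes did not overlap between 3 and 3 libraries. Capillary genes stood at 1547, 2303 and 1980 CPM in WT and 1196, 1451 and 1363 CPM in 3xTg-AD mice and venous genes at 1352, 1702 and 1468 CPM in WT and 2270, 1809 and 1910 CPM in 3xTg-AD mice, neither with overlap. At 12 months both sums overlapped between the genotypes, and arterial genes overlapped at both ages. The 26 further endothelial markers summed to a mean of 14234 CPM in WT and 12598 CPM in 3xTg-AD mice at 6 months. At 12 months the means were 15369.5 and 14192 CPM, with overlap of the libraries at both ages. Astrocyte and pericyte sums, given above, separated the genotypes at 12 months. The part of the segment markers, the further endothelial markers and these other sums in the list values was not tested. Genes that passed the filter are those with enough endothelial counts, and members of a pathway are not independent of each other, so these shares describe the lists.

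No gene of the barrier lists was called, in a comparison that called 0.031% of all tested genes. Of the junction genes 14 of 16 were tested, with a median log2 fold change of -0.15. Values were 0.01 for Ocln and 0.11 for Tjp1, which encode the tight junction proteins occludin and ZO-1, and -0.59 for Cdh5, the VE-cadherin of adherens junctions, and Esam (-0.47) was the 1 member with an unadjusted p under 0.05. Efflux pumps were at a median of 0.02 over 5 of 6 genes, with 0.02 for Abcb1a and -0.04 for Abcg2. Over 16 of 19 solute carrier genes the median was -0.23, with -0.43 for the glucose transporter gene Slc2a1, 0.08 for the amino acid transporter gene Slc7a5 and an unadjusted p under 0.05 for Slco1c1 (-0.44), which carries thyroid hormone, the taurine transporter gene Slc6a6 (-0.50) and the scaffold gene Slc9a3r2 (-0.87). Vesicle transport and its receptors, 6 of 14 tested, had a median of -0.26, with -0.89 for the caveolar coat gene Cavin2 (unadjusted p under 0.05), -0.30 for Cav1 and -0.23 for Tfrc. Plvap, which marks leaky fenestrated endothelium, had a UMI in 11 nuclei and was not tested.

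Ligands and receptors of growth signals were tested in part. For VEGF and angiopoietin, 7 of 16 genes were tested, with a median of -0.60, and Nrp1 (-0.64), Nrp2 (-0.67) and the ligand gene Vegfc (-1.08) had an unadjusted p under 0.05, while the receptor genes stood at -0.60 for Kdr and -0.10 for Tek. For TGF-beta and BMP, 12 of 18 were tested, with a median of -0.22, and beside Acvrl1 the ligand gene Bmp6 (1.15) had an unadjusted p under 0.05, with 121 to 341 CPM in 3xTg-AD and 37.9 to 220 CPM in WT libraries at 6 months. The co-receptor gene Eng was at -0.26 and the targets Id1 and Id3 at -0.70 and -0.49. Notch receptors Notch1 (-0.67) and Notch4, the latter with the limit of the filter given above, had an unadjusted p under 0.05. The ligand gene Jag1 was at 0.26. Wnt and beta-catenin signalling, 14 of 20 tested, had a median of -0.11 and no member with an unadjusted p under 0.05, against 5.55% of all tested genes. Values were -0.18 for the receptor gene Fzd4, -0.38 for its partner Adgra2 and -0.07 for the nuclear effector gene Lef1.

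Transcription factors, 15 of 24 tested, had a median of -0.19. The flow-responsive factors Klf2 (-0.72) and Klf4 (-0.76), the ETS factor Ets1 (-0.63) and the hypoxia factor Epas1 (-0.32) had an unadjusted p under 0.05, and the ETS factors Erg and Fli1 stood at 0.03 and -0.01. Klf2 ranged from 193 to 437 CPM in 3xTg-AD and 302 to 748 CPM in WT libraries, with overlap. Basement membrane and integrin genes had a median of -0.22 over 9 of 15, with an unadjusted p under 0.05 for the collagen gene Col4a1 and the laminin gene Lama5 (both -0.63).

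In the inflammation and interferon list 10 of 24 genes were tested, and H2-K1, an MHC class I gene (-0.88), and Vcam1 (1.26) had an unadjusted p under 0.05 in opposite directions. Among clotting and vasomotor genes other than Plat, the values were 0.19 for Vwf, -0.20 for Edn1, the vasoconstrictor endothelin (-1.38 at 6 months, with a difference of the effects between ages of 2.23, edgeR adjusted p = 0.994), and -0.38 for Nos3, the endothelial nitric oxide synthase. No gene of the amyloid handling list had an unadjusted p under 0.05 (9 of 17 tested), against 5.55% of all tested genes. Values were 0.11 for Picalm, -0.02 for App and -0.26 for Ece1, an enzyme that degrades amyloid-beta. Lrp1, an amyloid-beta receptor, had a UMI in 64 nuclei and Ager in 3, and neither was tested for genotype over both ages. Lrp1 was tested for the difference of the effects between ages (0.21, edgeR adjusted p = 0.9998).

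**Figure D5:**
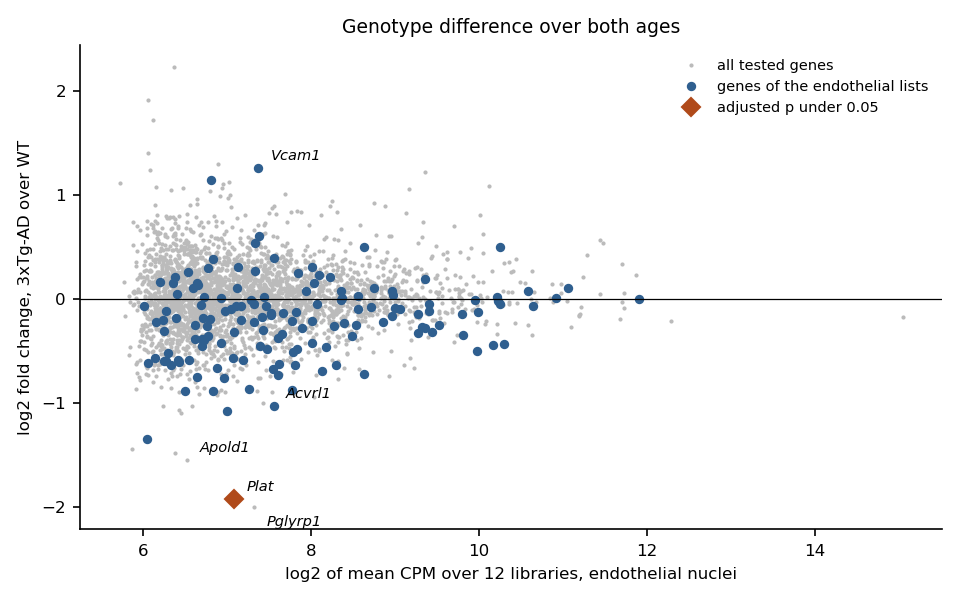
Log2 fold change of 3xTg-AD over WT in endothelial nuclei, both ages fitted together, against log2 of the mean CPM over 12 libraries, for all 3224 tested genes (grey), genes of the endothelial lists (blue) and the gene with an adjusted p under 0.05 (orange diamond, Plat at -1.93). Acvrl1 (-1.03), Apold1 (-1.55), Pglyrp1 and Vcam1 (1.26) are named and did not pass the threshold.

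At 6 months alone edgeR called 1 gene of 2971 (0.0337%), a neuronal gene rather than an endothelial one. DESeq2 called 6 genes, Plat and Unc5d among them. Unc5d, a netrin receptor gene on chr8:28646717-29219636, held 94.7, 88.0 and 75.8 CPM in WT and 367, 306 and 505 CPM in 3xTg-AD mice, without overlap, a log2 fold change of 2.17 with an SE of 0.32 (edgeR adjusted p = 0.0450). Of all genes tested at 6 months, 10.9% did not overlap. Over the other nuclei Unc5d stood at 575 to 845 CPM. The neuronal markers in endothelial nuclei, some of which the rule limits, summed to 676, 558 and 729 CPM in WT and 1450, 1087 and 443 CPM in 3xTg-AD mice at 6 months. Their part in the result was not tested. The call was lost without 3xTg-AD replicate 5 (adjusted p = 0.0636) or WT replicate 3 (0.135), 7 (0.361) or 11 (0.295), with log2 fold changes of 1.92 to 2.34 over all fits that left out 1 library. Without members of a second class and doublets, Unc5d had a log2 fold change of 0.62 (edgeR adjusted p = 0.983), and at 12 months its levels of 339, 51.8 and 131 CPM in WT and 54.6, 168 and 284 CPM in 3xTg-AD mice overlapped.

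At 12 months alone no gene of 2716 was called by edgeR (0%), with 97 at an unadjusted p under 0.05, and none by DESeq2. The smallest p belonged to Gm3764 (log2 fold change 2.81, edgeR adjusted p = 0.564), Apobec3, an antiviral deaminase gene (2.51, adjusted p = 0.963), and Msra, which repairs oxidized methionine (-1.43, adjusted p = 1.00). Apobec3 held 178, 214 and 87.3 CPM in 3xTg-AD and 22.6, 17.3 and 40.2 CPM in WT mice, without overlap. Of all genes tested at 12 months, 9.50% did not overlap. Apobec3 passed the filter on low counts through its 3xTg-AD libraries alone. Gm3764 stood at 2027 CPM in astrocyte-like nuclei. The astrocyte sum of endothelial nuclei was also higher in every 3xTg-AD library at 12 months, and its part in the value of Gm3764 was not tested.

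Age left no gene past the threshold. Over both genotypes 0 of 3224 genes (0%) were called by edgeR between 12 and 6 months, with 129 at an unadjusted p under 0.05, and DESeq2 called none. The smallest p belonged to Rnf220, a ubiquitin ligase gene (log2 fold change -1.22), Cpeb2, a regulator of translation (-1.31), and Btg2, an early response gene that restrains growth (-1.41), all with an edgeR adjusted p of 0.672. The immediate-early gene Fosb stood at -2.30 and Plat at -0.31. In WT mice the immediate-early and heat shock sum had a mean of 1041 CPM at 6 months and 507 CPM at 12 months. In 3xTg-AD mice the means were 384 and 373 CPM. The part of these sums in the age values was not tested. The age groups did not overlap in 5 of 3224 genes (0.155%), beside 0% called. Of these, named after their values were seen, Klhl3 was higher and Grb14, Trpc4ap, Notch2 and Zfp871 lower at 12 months.

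Among the endothelial lists 123 genes were tested for age, 0 were called, and 12 (9.76%) had an unadjusted p under 0.05, against 129 of the 3224 genes tested. The median log2 fold change was 0.11, and 39.8% were negative, against 50.3% of all tested genes. Within WT mice 45.3% were negative against 49.9% of all (median 0.04), and within 3xTg-AD mice 30.4% against 49.4% (median 0.16), a contrast that was not tested. Inflammation and interferon genes had a median of 0.45, with 9 of 10 tested members positive. Il1r1, Vcam1 and Vwf are also on the venous list, whose sum had a mean of 1507 CPM at 6 months and 2388 CPM at 12 months in WT and of 1996 and 3103 CPM in 3xTg-AD mice, and the part of the venous markers in these values was not tested. Values were 0.90 for B2m and 0.69 for H2-D1, both of MHC class I, 0.61 for Il1r1 and 1.17 for Vcam1, and Vwf of the clotting list stood at 0.61. B2m held 75.8, 88.0 and 75.8 CPM in WT mice at 6 months and 52.8, 207 and 221 CPM at 12 months, and in 3xTg-AD mice 69.9, 34.7 and 76.1 CPM and 178, 61.0 and 109 CPM, so that the ages overlapped in both genotypes. Il1r1 reached 2062 and 2541 CPM in 2 of the 3xTg-AD libraries at 12 months and 640 CPM in the third. Among the barrier genes the log2 fold change was 0.33 for Abcb1a, 0.02 for Abcg2, 0.00 for Ocln and -0.11 for Slc2a1.

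Within WT mice 0 of 2485 genes (0%) were called between the ages by edgeR, with 110 at an unadjusted p under 0.05, and none by DESeq2. Without WT replicate 4 edgeR called 15, Gm3764 among them. The smallest p were those of Gm3764 (log2 fold change -3.07, edgeR adjusted p = 0.0510), the neuronal adhesion gene Clstn2 (2.36, adjusted p = 0.819) and the axon guidance receptor gene Robo2 (3.18, adjusted p = 0.922), for which WT replicate 12 of 12 months held 1536 CPM. The fall of the astrocyte sum with age in WT mice, given above, went the same way as Gm3764, and its part in that value was not tested. Within 3xTg-AD mice 0 of 3172 genes (0%) were called by edgeR, with 122 at an unadjusted p under 0.05, and none by DESeq2, and the smallest p were those of Nell1 (-2.20), Lhfp (-1.34) and Vcam1 (1.55), all with an adjusted p of 0.996.

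The genotype effect was not shown to differ between the ages for any gene by edgeR, with 0 of 3550 called (0%) and 150 at an unadjusted p under 0.05, while DESeq2 called 1, Robo2. The difference of the effects, 12 minus 6 months, was 3.67 for Gm3764, -2.32 for Msra and -4.65 for Robo2, all with an edgeR adjusted p of 0.624. The median SE of a log2 value was 0.57 in this test, against 0.27 for genotype or age over all 12 libraries.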

How the data were processed

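The authors sorted nuclei of perfused mice, prepared libraries with 10x Genomics 3′ chemistry in 1 sequencing batch, aligned them with Cell Ranger 6.1.1 to mm10 (GRCm38) and deposited Cell Ranger's filtered matrices, whose values are raw UMI counts for each gene in each nucleus. Whether intronic reads were counted is not given in the sources used here. The matrices precede the authors' removal of ambient RNA, which was not repeated for the values given here.

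Of 185643 barcodes, 686 fell outside 500 to 10000 detected genes. Pericyte-like and microglia-like nuclei needed 3, astrocyte-like nuclei 4 of their markers. Doublets were called per library with Scrublet (expected share 8%) and kept in the main fit. Counts of endothelial nuclei were added up within each library and compared between groups in edgeR 4.0.16 (quasi-likelihood F test, TMM, filterByExpr with a minimum count of 10, two-sided, Benjamini-Hochberg over all genes tested). DESeq2 1.42.0 was an alternative. Shares were compared with exact permutation tests over libraries. Each library was 1 mouse. Scripts were tested on simulated data.

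The members, lists and tests were chosen with earlier results of these data known. Named genes were, per comparison, up to 5 called genes per direction whose groups did not overlap, otherwise the 3 with the smallest p, and the 25 genes with the largest ratio (at least 50 CPM), and called list members. The genotype is not described in full, and a check of the labels is not reported here.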

Additional observations from a re-analysis of the deposited data

Results flagged for a closer look

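The genotype effect on Plat differed between endothelial nuclei and the other nuclei of the same libraries by -2.06 on the log2 scale (edgeR, library as a block, adjusted p = 0.0116). In endothelial nuclei Plat was lower in 6 of 6 3xTg-AD libraries than in any WT library, and in the other nuclei the genotypes overlapped. The call rests on 3 to 33 UMIs of Plat per library and was lost when any of 5 libraries was left out. Plat passed the filter on low counts through its WT libraries alone. Checks for a library that stands apart within its genotype or age were made for 14 values, and none was met.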

How the results depend on the processing

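Counts of called genes were small. For genotype at 6 months and over both ages they moved by over 1.5 times with most settings, and for the other tests with fewer. In the order genotype at 6 months, genotype at 12 months, age in WT, age in 3xTg-AD, genotype over both ages, age over both genotypes, genotype by age and genotype in endothelial minus other nuclei, the main counts of 1, 0, 0, 0, 1, 0, 0 and 1 became 32, 23, 19, 48, 25, 34, 25 and 8 without the filter on low counts. DESeq2 called 6 genes at 6 months (Plat and Unc5d among them), 3 over both ages (Apold1, Pglyrp1 and Plat) and 1 for genotype by age. Over both ages Plat and Apold1 passed the same filter on low counts through WT libraries alone. With at least 4 of the 6 markers the counts were 0 at 6 months, 1 (Trpm3) at 12 months, 1 (Gpc5) for age in WT and 3 (Grm7, Apold1 and Plat) over both ages. At 6 months the count was 0 without second classes and doublets, with thinned counts and with all 12 libraries in 1 fit. Thinned counts gave 0 calls over both ages, where 1669 genes were tested and Plat did not reach the count minimum. Leaving out replicates 7 and 9, chosen after seeing the data, gave 2 calls at 6 months, 0 over both ages, 1 for genotype by age and 0 for the endothelial minus other test, where Plat was at -2.07 (adjusted p = 0.157). The cause of these changes was not tested beyond the number of genes or libraries each setting leaves.

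Leaving out each library in turn gave 0 to 15 calls at 6 months (15 without 3xTg-AD replicate 9), 0 to 2 at 12 months, 0 to 15 for age in WT (15 without WT replicate 4, with Gm3764 and Gpc5 among them), 0 to 0 for age in 3xTg-AD, 0 to 4 for genotype over both ages, 0 to 0 for age over both genotypes, 0 to 2 for genotype by age and 0 to 1 for the endothelial minus other test. Differences in share then ran from -0.102 to -0.0337 points for age, from -0.0102 to 0.0583 for genotype (turned without 3xTg-AD replicate 5 or 6 or WT replicate 7 or 8) and from -0.0176 to 0.133 for genotype by age (turned without WT replicate 3 or 3xTg-AD replicate 6). Other rules moved the age difference from -0.0670 to -0.403 points with at least 2 markers (exact permutation p = 0.0433, adjusted p = 0.13), -0.00452 with at least 4 and -0.00241 in nuclei thinned to 2000 UMIs, and the genotype difference from 0.0165 to 0.00569, 0.00332 and 0.0326, none past the threshold. With at least 2 markers, replicates 7 and 9 of 6 months held 231 and 243 nuclei and the other libraries 55 to 178. The 24 named gene values kept their direction under all 359 alternatives computed for them. These values had been chosen from the same data as called, by smallest p or after being seen. The alternatives drew on the same libraries, so a turn of direction was unlikely from the start. No paired analysis was made, because each library was a different mouse and the labels name no pairs.

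At 40 to 90 nuclei per library and a median SE of 0.27 to 0.57 on the log2 scale, small differences and genes below the filter could not be assessed, and 12 libraries of female mice limit the comparisons.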
